A study of Mus musculus with 4 samples.

Results

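The cadherin superfamily was examined in CD45-negative cells of mouse lung, which lack the common surface antigen of leukocytes, after bleomycin injury. Its members were taken by gene symbol: classical and atypical cadherins (Cdh followed by a number, Cdh5 excepted), protocadherins, desmocollins, desmogleins, the Fat cadherins Fat1 to Fat4 and the Celsr cadherins Celsr1 to Celsr3. Of 30142 genes that an array feature named alone, 70 were members, each read by a single feature. The arrays held RNA of C57BL/6 mice given bleomycin (BLM), a DNA-damaging drug that induces lung fibrosis, or phosphate-buffered saline (PBS) into the trachea 10 days earlier, with 2 BLM and 2 PBS arrays. Dose, age, sex and the method of cell separation are not given in the labels, and the labels do not say whether each array held a different mouse. The p-values therefore cover only how far these arrays differ, which may be technical.

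Cadherins are calcium-dependent adhesion proteins that bind like molecules on the neighbouring cell. Classical cadherins are tied to actin through catenins, whereas the desmosomal desmogleins and desmocollins are tied to keratin through plakoglobin, plakophilins and desmoplakin. Protocadherins carry other cytoplasmic tails and are best known from neurons, and the very large Fat and Celsr proteins serve growth control and the polarity of cells within a sheet. In lung, E-cadherin (Cdh1) holds the epithelium together and cadherin-11 (Cdh11) is typical of mesenchymal cells.

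Values are log2 expression as deposited. They reach 19.87 (Sftpc, the surfactant protein C gene, on a PBS array), and how the authors scaled them is not given in the sources used here, so folds are those of the deposited scale. Here differences are mean log2 in BLM less mean log2 in PBS, each given with a standard error (SE). A gene is said to rise or fall where its adjusted p lay under 0.05 in a limma fit over all 30142 genes. Replicates were close: genes differed by 0.134 on average between the BLM arrays and by 0.157 between the PBS arrays, and the median gene stood at 0.05 between the groups. The median level of all genes was 6.03, and the 23 background features of the array had a 95th percentile of 5.76 and 6.13 on the BLM arrays and 6.14 and 5.7 on the PBS arrays. Xist, the RNA of the inactive X chromosome, lay at 5.6 and 5.43 on the BLM arrays and at 15.86 and 15.61 on the PBS arrays, so every difference below is also one between Xist-low and Xist-high arrays, and treatment and this difference cannot be told apart. Y-linked genes went the other way, with Eif2s3y at 2.63, Uty at 2.44 and Kdm5d at 2.14. Ptprc, the gene of CD45 itself, lay at 7.19 and 7.2 on the BLM arrays, against 6.3 and 6.21 on the PBS arrays, and 4 of 5 leukocyte markers rose. Of 7 macrophage markers 5 rose, Ctss by 5.49, Mrc1 by 2.51, Cd68 by 2.44, Adgre1 by 1.32 and Csf1r by 0.6. Lyz2, the lysozyme gene that alveolar type 2 cells also express, fell by 1.14 and 1 did not pass. The mean level of the leukocyte markers was 7.21 and 7.33 on the BLM arrays and 6.17 and 6.1 on the PBS arrays. That of the macrophage markers was 10.35 and 10.35 on the BLM arrays and 8.71 and 8.78 on the PBS arrays. In bulk RNA, fewer cells of a type and less RNA per cell cannot be told apart.

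More members were higher than lower in BLM lungs. Of the 70 members, 22 rose, 5 fell and 43 did not pass. The 22 became 14 without BLM replicate 2 or without PBS replicate 1. Over all genes tested, 25.3% passed, 15.2% upward and 10.1% downward, against 31.4% upward and 7.14% downward among the members. The 20 beta protocadherins, close paralogs on chromosome 18, gave 12 of the 22 rises. Their features are open to cross-hybridisation, so these calls are not independent of each other. Among the 38 members on other chromosomes, which include no beta protocadherin, 9 rose (23.7%) and 4 fell (10.5%). At least 2-fold differences were called in 9 members, 8 higher and 1 lower (5.14% of all genes, 2.81% higher and 2.33% lower). Beta protocadherins made up 6 of these 8. The median difference of the members was 0.15, against 0.05 for all genes, and 0.11 after cyclic loess scaling of the arrays. BLM and PBS values did not overlap for 50 members, 42 of them higher in BLM (71.4%, against 63.3% of all genes).

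Many members gave little signal. A mean level below the median of all genes was found for 42 members, and 35 lay under the background features' 95th percentile on all 4 arrays. Differences of such dim features are compressed toward 0. Of the 28 members above the median level 22 passed, against 42.7% of all genes above it, and of the 42 below it 5 passed, against 7.96% of all genes below it. A gene can enter the upper class through the group in which it is high, so these shares are a description only.

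**Figure D1:**
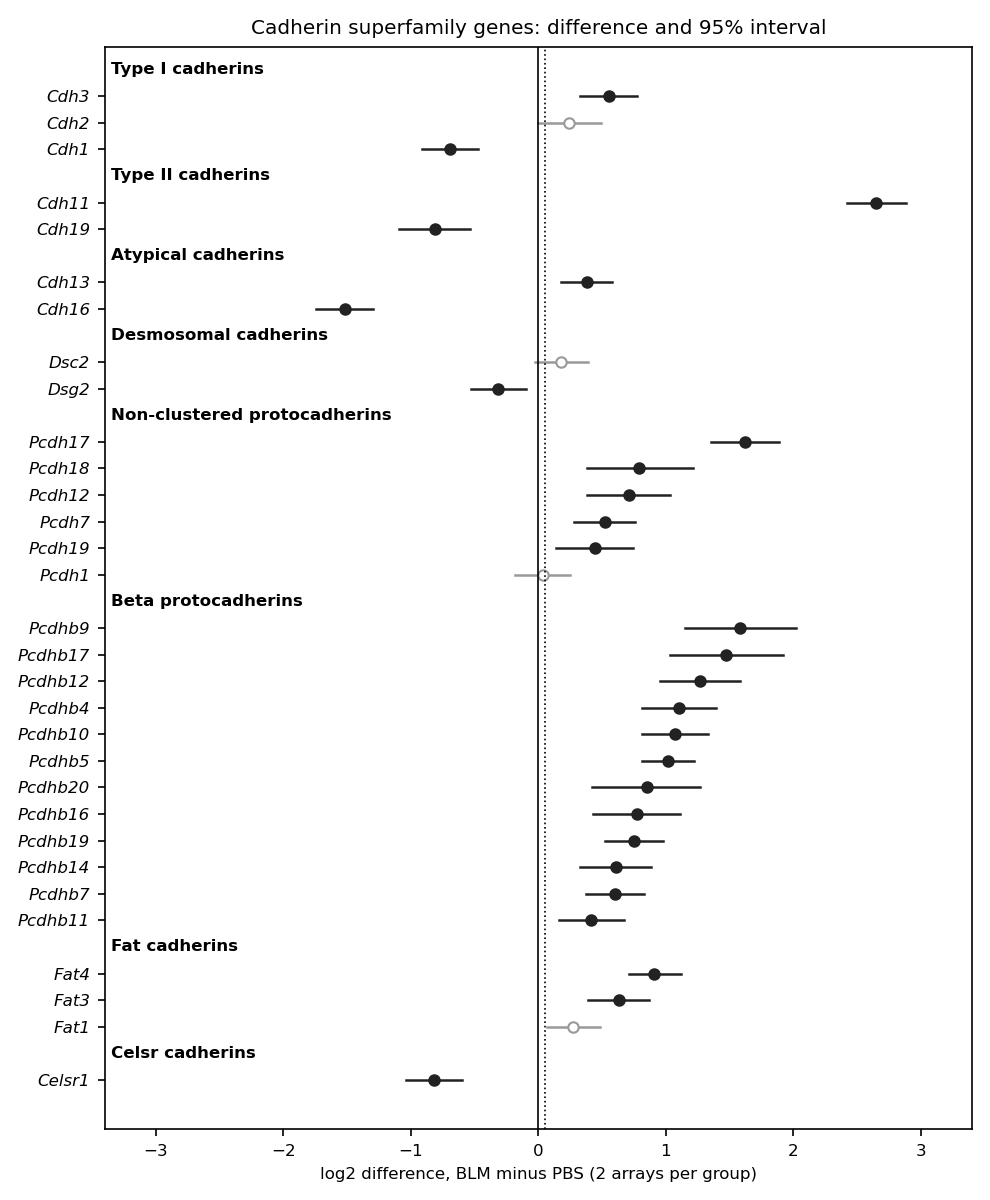
Log2 difference, BLM minus PBS, on the horizontal axis with its 95% interval for the 27 members that passed (filled) and 4 members of a fixed panel that did not (open), grouped by subfamily; n = 2 arrays per group. The dotted line marks the median of all genes, 0.05. All beta and non-clustered protocadherins shown as filled points lie to its right, and Cdh11 lies farthest right at 2.65.

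Among the classical cadherins, the mesenchymal Cdh11 and the epithelial Cdh1 moved in opposite directions. Cdh11 had values of 13.86 and 13.95 on the BLM arrays, against 11.19 and 11.32 on the PBS arrays. Both BLM arrays were high and the groups were far apart. The rise was 2.65 (SE 0.09, adjusted p = 0.000279), or 6.28-fold, and it lay between 2.59 and 2.71 without each array in turn. Cdh1 had values of 14.74 and 14.7 on the BLM arrays, against 15.47 and 15.35 on the PBS arrays. The BLM arrays were the lower pair and the groups did not overlap. Cdh1 fell by 0.69 (SE 0.09, adjusted p = 0.00479) and by 0.86 with cyclic loess, and it kept its call without each array in turn.

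P-cadherin, encoded by Cdh3 and typical of basal epithelial cells, went the other way from Cdh1. It lay at 6.49 and 6.56 on the BLM arrays and at 5.93 and 6.03 on the PBS arrays, a rise of 0.55 (SE 0.09, adjusted p = 0.0096). The call ended without BLM replicate 2 (adjusted p = 0.0614). N-cadherin, encoded by Cdh2 and often set against E-cadherin in epithelial-mesenchymal transition, had values of 5.61 and 5.78 on the BLM arrays, against 5.49 and 5.41 on the PBS arrays. All 4 values lay under the background features, and the difference of 0.24 (SE 0.10) did not pass (adjusted p = 0.134). The remaining type I genes, Cdh4 of the retina and brain and Cdh15 of skeletal muscle, differed by 0 and 0.09 and did not pass.

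Of 12 type II cadherins, 1 rose, Cdh11, and 1 fell, Cdh19, a gene of Schwann cells. That is 8.33% in each direction, against 15.2% upward and 10.1% downward over all genes. Cdh19 lay at 4.57 and 4.6 on the BLM arrays and at 5.27 and 5.52 on the PBS arrays. All of these values lie under the background features' 95th percentile, so the size of the fall, -0.81 (SE 0.11, adjusted p = 0.00568), is not exact. Among the Schwann and neural markers Sox10 lay at 5.28 and 5.29 on the BLM arrays and 5.21 and 5.24 on the PBS arrays and did not pass, whereas Ncam1 rose by 0.88. Cdh6, the kidney cadherin of development, stood just short of the threshold at 0.25 (adjusted p = 0.0742). The other 9, which include the neural Cdh8, Cdh9 and Cdh10, differed by -0.09 to 0.14.

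Among the atypical cadherins, Cdh16 showed the deepest fall of the 70 members. This gene, named for its expression in kidney tubules, had values of 6.98 and 6.95 on the BLM arrays, against 8.54 and 8.42 on the PBS arrays. The 2 groups were widely separated. It fell by 1.52 (SE 0.09, adjusted p = 0.000547), so that PBS levels were 2.87-fold those of BLM. Cdh13 encodes T-cadherin, which has a lipid anchor in place of a membrane-spanning tail and binds adiponectin. It had values of 9.7 and 9.69 on the BLM arrays and 9.29 and 9.34 on the PBS arrays, and it rose by 0.38 (SE 0.08, adjusted p = 0.0221). That call ended without any 1 of the 4 arrays (adjusted p = 0.0561 to 0.119) and with cyclic loess (0.0508). Cdh17, Cdh23 and Cdh26 lay under the background features on all arrays and did not pass.

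**Figure D2:**
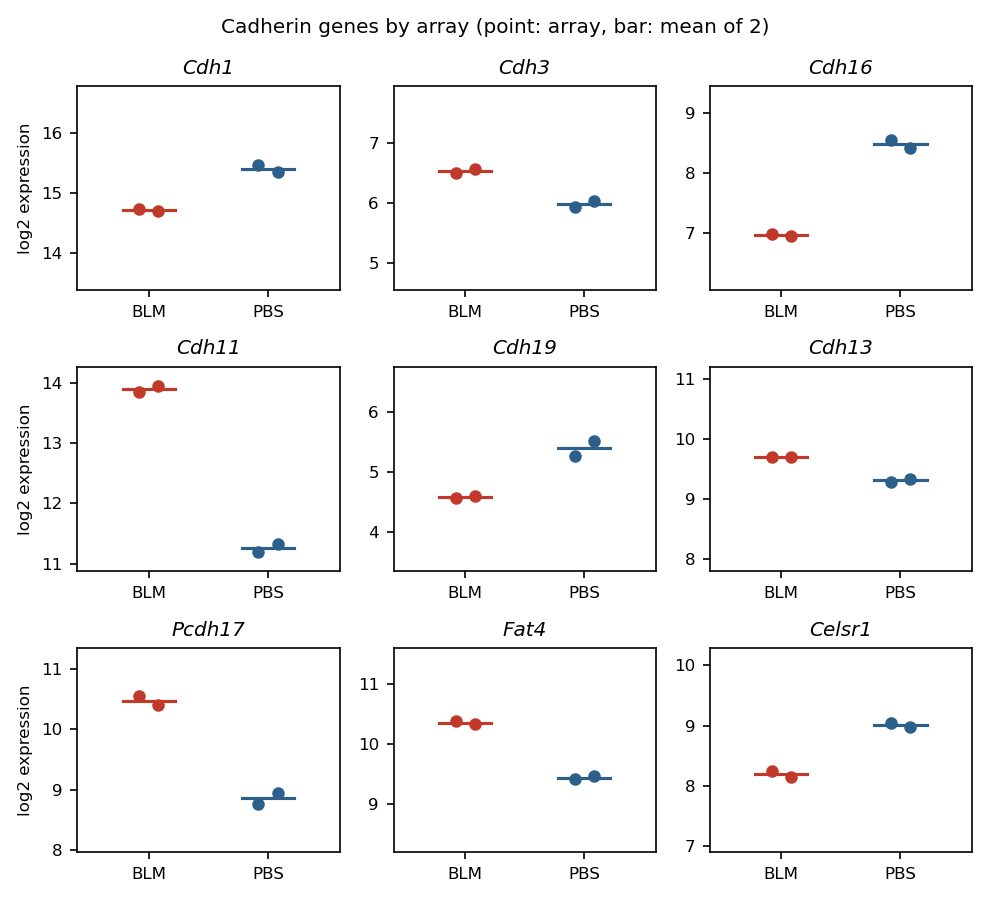
Log2 expression (vertical axes, each spanning 3.4 log2 units) of 9 members by array, with BLM at the left and PBS at the right of each panel; points are arrays and bars are means of 2. The arrays of a group lie closer to each other than to the other group in every panel, and the gap between groups is widest for Cdh11, Pcdh17 and Cdh16.

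Ciliated, club and alveolar type 2 cell markers were lower in BLM, where Cdh1 and Cdh16 fell, whereas general epithelial markers were mixed and no alveolar type 1 marker fell. Of 5 general epithelial markers, Epcam, a surface protein of epithelium, fell by 0.96, Krt18, a keratin of simple epithelium, rose by 0.3 and 3 did not pass, with a mean level of 11.82 and 11.71 on the BLM arrays against 12.01 and 11.97 on the PBS arrays. The Krt18 call ended without any 1 of the 4 arrays (highest adjusted p = 0.22), with the replicate block (0.0814), with median centring (0.0604) and with cyclic loess (0.12, adjusted p = 0.323). All 4 measured ciliated markers and all 4 club cell markers fell, as did 4 of 5 alveolar type 2 markers. Mean levels were 7.77 and 7.87 against 9.05 and 9.13 for the ciliated list, 13.16 and 13.12 against 14.25 and 14.2 for the club list, and 16.09 and 16.02 against 16.85 and 16.86 for the alveolar type 2 list, BLM against PBS arrays. Of 5 alveolar type 1 markers, Pdpn rose by 0.78 (adjusted p = 0.0116) and 4 did not pass, with a mean level of 10.13 and 10.08 on the BLM arrays against 9.8 and 10 on the PBS arrays. Beside Cdh11, 4 of 5 measured fibroblast markers rose, with a mean level of 12.85 and 12.81 on the BLM arrays and 10.81 and 10.92 on the PBS arrays, as did 4 of 5 pericyte markers. Of 5 mesothelial markers, 4 rose and 1, Wt1, did not pass. Smooth muscle markers were mixed: 2 of 5 rose, Myh11 fell by 1.08 and 2 did not pass, Acta2 at 0.07 and Tagln at 0.27. With cyclic loess the calls of the mesothelial Krt19 (0.15, adjusted p = 0.22) and the smooth muscle Des (0.22, adjusted p = 0.13) ended. Both calls also ended without any 1 of the 4 arrays and with the replicate block (adjusted p = 0.0656 and 0.0571). That of Des ended with median centring too (0.0542). Some other calls, such as those of the mesothelial Upk3b and the pericyte Higd1b, ended in fits that left out 1 array. Of the markers in this paragraph, only Wt1 lay under the background features in both groups. The part of cell composition in the cadherin differences was not tested.

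Desmosomal cadherins were mostly at background. Of 9 desmocollin and desmoglein genes, 8 lay under the background features on all 4 arrays and did not pass, at 0.02 to 0.29. The exception was Dsg2, the desmoglein of simple epithelia and heart muscle. It had values of 6.24 and 6.16 on the BLM arrays, against 6.55 and 6.48 on the PBS arrays. The groups did not overlap, and Dsg2 fell by 0.32 (SE 0.08, adjusted p = 0.0471), a call that ended without any 1 of the 4 arrays (adjusted p = 0.0892 to 0.217) and with the replicate block (0.0727). Dsc2, the desmocollin that accompanies it, was at 5.16 and 5.25 on the BLM arrays, against 5.06 and 5 on the PBS arrays, and did not pass (0.18, adjusted p = 0.194).

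Several genes of plakins and other junction partners of cadherins were lower in BLM, although most partner genes did not pass. Of 19 measured genes of catenins, plakins and their partners, 2 rose, 5 fell and 12 did not pass, against 15.2% upward and 10.1% downward over all genes. With cyclic loess 10 of the 19 passed, 2 upward and 8 downward. Ppl, encoding periplakin, had values of 7.95 and 7.75 on the BLM arrays, against 9.75 and 9.79 on the PBS arrays, and fell by 1.92 (SE 0.10, adjusted p = 0.000453). Dsp, encoding desmoplakin, was lower by 0.90 (SE 0.09), the desmosomal membrane protein gene Perp by 0.73 (SE 0.08) and the adherens junction gene Afdn, encoding afadin, by 0.58 (SE 0.08). Ctnnd1, which encodes the catenin that keeps classical cadherins at the membrane, stood at -0.40 (adjusted p = 0.0273) and did not pass when any 1 of the arrays was left out (highest adjusted p = 0.146). Upward calls were Ctnnbip1, an inhibitor of beta-catenin, at 0.87 (SE 0.10) and Vcl, encoding vinculin, at 0.48 (SE 0.08). Vcl stood at 0.29 with cyclic loess (adjusted p = 0.0478), and its adjusted p reached 0.0678 when an array was left out. Ctnna1, the alpha-catenin gene, stood at -0.25 (adjusted p = 0.112), and it passed with cyclic loess (-0.39, adjusted p = 0.0303), as did Ctnnd2 (-0.31, adjusted p = 0.0406) and the plakophilin gene Pkp2 (-0.38, adjusted p = 0.021). The plakoglobin gene Jup stood at 0.06 and at -0.07 with cyclic loess, and did not pass in either. Ctnnb1 was not analysed here.

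Of 7 measured transcription factors known to repress the E-cadherin gene, 3 rose, none fell and 4 did not pass. Over all genes, 15.2% rose and 10.1% fell. Snai2 had values of 10.74 and 10.13 on the BLM arrays and 8.44 and 8.59 on the PBS arrays, a rise of 1.92 (SE 0.21, adjusted p = 0.00288). Snai1 had values of 6.77 and 7.16 on the BLM arrays, against 5.76 and 5.95 on the PBS arrays, and rose by 1.11 (SE 0.16). Neither gene's groups overlapped. Twist1 rose by 0.72 (SE 0.12, adjusted p = 0.0104), with all 4 values under the background features, so that the size is not exact, and did not pass without BLM replicate 2 (0.0551). Zeb1 at 0.44 (adjusted p = 0.0646), Snai3, Twist2 and Tcf3 did not pass, and Zeb2 was not analysed here. Mesenchymal cells express several of these factors, and 4 of 5 measured fibroblast markers rose on the same arrays. The part of cell composition in the rises of these factors was not tested.

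Of 5 measured genes of enzymes that cut cadherins at the cell surface or in the membrane, 3 rose and none fell. Over all genes, 15.2% rose. Adam10, the main sheddase of E-cadherin and N-cadherin, rose by 1.2 (SE 0.11, adjusted p = 0.00185), with values of 11.16 and 11.07 on the BLM arrays against 9.8 and 10.04 on the PBS arrays. Adam15 rose by 0.73 (SE 0.11) and Mmp3, encoding stromelysin, by 0.72 (SE 0.09). Mmp7 at 0.11 and Psen2 at 0.05 did not pass.

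**Figure D3:**
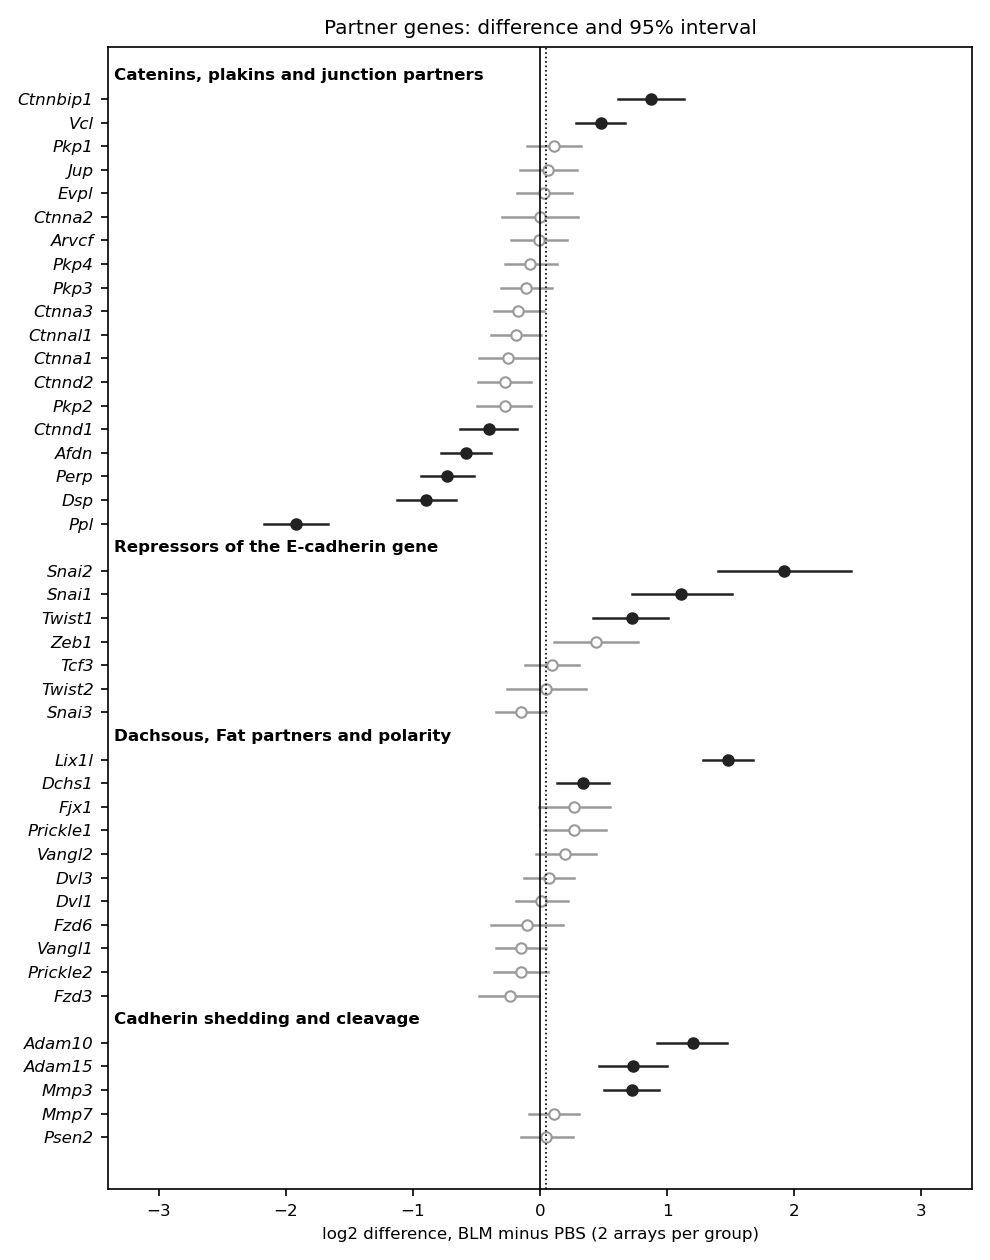
Log2 difference, BLM minus PBS, on the horizontal axis with its 95% interval for the measured genes of 4 partner lists; filled points passed and open points did not, n = 2 arrays per group, and the dotted line marks the median of all genes, 0.05. Ppl, Dsp and Perp lie to the left, and Snai2, Lix1l, Adam10 and Snai1 to the right.

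Non-clustered protocadherins are those whose genes lie outside the tandem protocadherin clusters. They rose in 5 of 12 cases, and none fell (41.7% upward, against 15.2% of all genes and 25.3% of genes above the median level). Pcdh17 had values of 10.55 and 10.41 on the BLM arrays, against 8.76 and 8.95 on the PBS arrays. The BLM arrays stood clearly above, and Pcdh17 rose by 1.62 (SE 0.11, adjusted p = 0.000796), or 3.08-fold. It is a protocadherin that recruits actin regulators in growing axons, and it kept its call in every fit that left out 1 array. The count of 5 did not hold in such fits, being 1 without BLM replicate 1 or PBS replicate 1 and 3 without either of the other arrays.

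Pcdh7 had values of 11.82 and 11.91 on the BLM arrays, against 11.27 and 11.43 on the PBS arrays. It rose by 0.52 (SE 0.10, adjusted p = 0.0153), a call that ended without BLM replicate 1 (0.0601), BLM replicate 2 (0.0865) or PBS replicate 1 (0.0556) and with cyclic loess (0.34, adjusted p = 0.0531). Pcdh12, known as an endothelial protocadherin, had values of 7.48 and 7.21 on the BLM arrays, against 6.55 and 6.73 on the PBS arrays, with no overlap. Its rise was 0.71 (SE 0.13, adjusted p = 0.0144) and did not pass without BLM replicate 1 (0.0642) or PBS replicate 1 (0.0581). Of 5 general endothelial markers on the same arrays, Cdh5 rose by 0.85 and Kdr by 0.42 and 3 did not pass, while Prox1, Flt4 and Mmrn1 of 4 lymphatic markers rose and Lyve1 fell. The Kdr call ended without any 1 of the 4 arrays (highest adjusted p = 0.179), with the replicate block (0.0647) and with cyclic loess (0.26, adjusted p = 0.0991). The endothelial list had a mean level of 12.62 and 12.4 on the BLM arrays and 12.13 and 12.26 on the PBS arrays. Its part in the result was not tested.

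Pcdh18 had values of 6.66 and 6.22 on the BLM arrays, against 5.73 and 5.56 on the PBS arrays, which lay under the background features. The rise of 0.79 (SE 0.16, adjusted p = 0.0221) ended without BLM replicate 1 (0.0593), PBS replicate 1 (0.0552) or PBS replicate 2 (0.086). The X-linked Pcdh19 is a gene of familial epilepsy in humans. It stood at 6.17 and 5.93 on the BLM arrays, against 5.53 and 5.69 on the PBS arrays, and rose by 0.44 (SE 0.12, adjusted p = 0.048). Its PBS values and its value on BLM replicate 2 lay under the background features, so the size is not exact. Its call ended without any 1 of the arrays (0.0565 to 0.209), with the replicate block (0.0791), with the trended and robust prior (0.0504), with median centring (0.0599) and with cyclic loess (0.0673). The other X-linked member, Pcdh11x, was at 4.82 and 4.72 on the BLM arrays and 5.02 and 4.87 on the PBS arrays and did not pass. Pcdh1, an airway epithelial protocadherin associated with bronchial hyperresponsiveness in humans, had values of 9.62 and 9.51 on the BLM arrays and 9.52 and 9.53 on the PBS arrays. These overlapped, with a difference of 0.04 (95% interval -0.18 to 0.25), or -0.07 with cyclic loess. The other 5 non-clustered genes were dim and differed by 0.06 to 0.16.

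Of the 4 Fat cadherins, 2 rose and none fell, against 15.2% upward and 10.1% downward over all genes. Fat4, the receptor for the giant cadherin Dchs1, had values of 10.38 and 10.33 on the BLM arrays, against 9.42 and 9.47 on the PBS arrays. It rose by 0.91 (SE 0.08, adjusted p = 0.00173), and the rise lay between 0.88 and 0.94 without each array in turn. Fat3 had values of 7.15 and 7.04 on the BLM arrays, against 6.53 and 6.4 on the PBS arrays, and rose by 0.63 (SE 0.09, adjusted p = 0.00792), short of the threshold without BLM replicate 1 (0.0525). Fat1 was at 9.89 and 9.93 on the BLM arrays and 9.67 and 9.61 on the PBS arrays. Its difference of 0.27 missed the threshold (adjusted p = 0.0651). Fat1 passed in the fit without dim genes (0.0258) and with the trended and robust prior (0.0364). With cyclic loess it stood at 0.15 (adjusted p = 0.248). Fat2 differed by 0.

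Celsr1, which encodes a planar polarity cadherin of epithelial sheets, fell. It had values of 8.24 and 8.14 on the BLM arrays, against 9.04 and 8.98 on the PBS arrays, and the difference was -0.82 (SE 0.09, adjusted p = 0.00272). Celsr2 at -0.21 and Celsr3 at 0.16 did not pass. Of 11 measured partners of Fat and of planar polarity, 2 rose, none fell and 9 did not pass. The upward share is near that of all genes, 15.2%. Lix1l rose by 1.48 (SE 0.08, adjusted p = 0.000491), and Dchs1, the ligand of Fat4, by 0.34 (SE 0.08, adjusted p = 0.0364). The Dchs1 call ended without any 1 of the arrays (highest adjusted p = 0.16), with the replicate block (0.0655) and with cyclic loess (0.0577). The core polarity genes Vangl1, Vangl2, Fzd3 and Fzd6 stood at -0.15, 0.2, -0.24 and -0.1.

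The promoters of 3 members that rose, the non-clustered protocadherins Pcdh17 and Pcdh7 and the Fat cadherin Fat4, are shown to let the start regions of genes that rose together be compared. They are RefSeq sequences of build GRCm38.p6 from 250 bases before to 50 bases after the gene's start, read 5′ to 3′ on the gene's strand, and capitals mark CG dinucleotides. Pcdh17 lies at chr14:84443313-84443612, Fat4 at chr3:38886690-38886989 and Pcdh7 at chr5:57717831-57718130, all on the plus strand.
Pcdh17: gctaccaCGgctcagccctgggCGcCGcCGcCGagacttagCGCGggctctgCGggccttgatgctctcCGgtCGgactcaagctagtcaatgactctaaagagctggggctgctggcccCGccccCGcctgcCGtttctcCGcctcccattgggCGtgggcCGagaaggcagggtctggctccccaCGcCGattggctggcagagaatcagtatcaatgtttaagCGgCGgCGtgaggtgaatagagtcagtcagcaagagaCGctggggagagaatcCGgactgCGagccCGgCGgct
Fat4: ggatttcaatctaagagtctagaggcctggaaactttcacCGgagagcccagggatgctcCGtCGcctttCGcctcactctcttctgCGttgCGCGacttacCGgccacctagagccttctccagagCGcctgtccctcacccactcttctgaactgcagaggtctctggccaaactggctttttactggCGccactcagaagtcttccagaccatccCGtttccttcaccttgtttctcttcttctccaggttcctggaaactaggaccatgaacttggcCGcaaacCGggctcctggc
Pcdh7: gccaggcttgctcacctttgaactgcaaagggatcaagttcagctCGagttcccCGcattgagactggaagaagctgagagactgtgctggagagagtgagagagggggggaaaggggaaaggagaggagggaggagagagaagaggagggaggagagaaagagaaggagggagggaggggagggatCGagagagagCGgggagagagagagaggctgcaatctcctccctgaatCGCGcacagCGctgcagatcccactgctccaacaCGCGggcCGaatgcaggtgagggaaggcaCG
The Pcdh17 promoter held 26 CG dinucleotides, that of Fat4 held 13 and that of Pcdh7 held 11, against a median of 7 over the 32851 promoters in the table. For 28 members an entry was used, and their median was 13.5, above the counts of Fat4 and Pcdh7. Cdh1, Cdh3, Cdh11, Cdh13, Cdh16, Cdh19 and Celsr1 passed but had no entry, so the 28 hold no member that fell. The 6 of these that rose had a median of 20.5 CG dinucleotides and the 22 that did not pass had a median of 10.5, with ranges of 11 to 35 and 2 to 40 that overlap widely. The E-box CAGGTG, searched on both strands and recognised by factors such as Snai1 and Snai2, was present in 1 of the 6 and 4 of the 22, and in 20.2% of all promoters. In Pcdh7 it begins at position 283 of the window. These are matches of letters and say nothing of binding.

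The beta protocadherins, a tandem array of intronless genes on chromosome 18 that neurons use to tell self from other, were mostly higher in BLM. Of 20 beta genes, 12 rose and none fell, 6 of the 12 at least 2-fold, with a median difference of 0.61 over all 20. The groups did not overlap for 14 of the 20, all higher in BLM (70.0%, against 63.3% of all genes in either direction). Over all genes, 11452 of 30142 did not overlap and were higher in BLM. Calls upward made up 60.0% of the beta genes, against 15.2% of all genes. The features of these genes are open to cross-hybridisation, because the coding sequences of the paralogs are close to each other, so which gene a value reflects is uncertain and the 20 are not independent of each other.

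Pcdhb9 had values of 9.86 and 9.36 on the BLM arrays, against 8.01 and 8.04 on the PBS arrays. It rose by 1.58 (SE 0.17, adjusted p = 0.00297), or 3-fold. Pcdhb17 had values of 10.26 and 10.65 on the BLM arrays, against 8.81 and 9.15 on the PBS arrays. Both BLM arrays were above both PBS arrays for either gene, although the BLM arrays of Pcdhb9 differed from each other. Pcdhb17 rose by 1.47 (SE 0.18, adjusted p = 0.004) and Pcdhb12 by 1.27 (SE 0.12), with 7.6 and 7.72 on the BLM arrays against 6.25 and 6.54 on the PBS arrays. Pcdhb5 was even between arrays, at 7.18 and 7.13 for BLM and 6.14 and 6.14 for PBS, and rose by 1.02 (SE 0.08, adjusted p = 0.00122). Pcdhb4 at 1.10, whose PBS values were under the background features, and Pcdhb10 at 1.07 also rose. For Pcdhb10, Pcdhb19 at 0.75 and Pcdhb11 at 0.41, all 4 values were under them, so their sizes are not exact.

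The 4 other beta genes that rose were Pcdhb20 at 0.85, Pcdhb16 at 0.77, Pcdhb14 at 0.61 and Pcdhb7 at 0.60. In order along the chromosome, the genes that rose lay throughout the array, from Pcdhb4 to Pcdhb20, and among the first 3 none passed. The 8 that did not pass differed by -0.17 (Pcdhb1) to 0.41 (Pcdhb3). For Pcdhb3 the BLM arrays lay at 5.06 and 5.95, against 5.08 and 5.11 on the PBS arrays, so that 1 BLM array alone was raised. The beta genes were less even between BLM arrays than genes at large, with a mean absolute difference of 0.259 between the BLM arrays and 0.163 between the PBS arrays, against 0.134 and 0.157 over all genes. The count of 12 was 8 without BLM replicate 2, 9 without PBS replicate 1 and 11 without either of the other arrays. The calls lost were Pcdhb11 without any 1 of the arrays (and with median centring, 0.0513, or cyclic loess, 0.0599), Pcdhb14 and Pcdhb20 without BLM replicate 2 (0.0741 and 0.0643) or PBS replicate 1 (0.0536 and 0.0732), Pcdhb16 without either BLM array (0.0634 and 0.0501) and Pcdhb7 without BLM replicate 2 (0.0506). Pcdhb3 passed without BLM replicate 1 and Pcdhb2 without BLM replicate 2. Promoters of the 32 members on this chromosome were not used here.

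**Figure D4:**
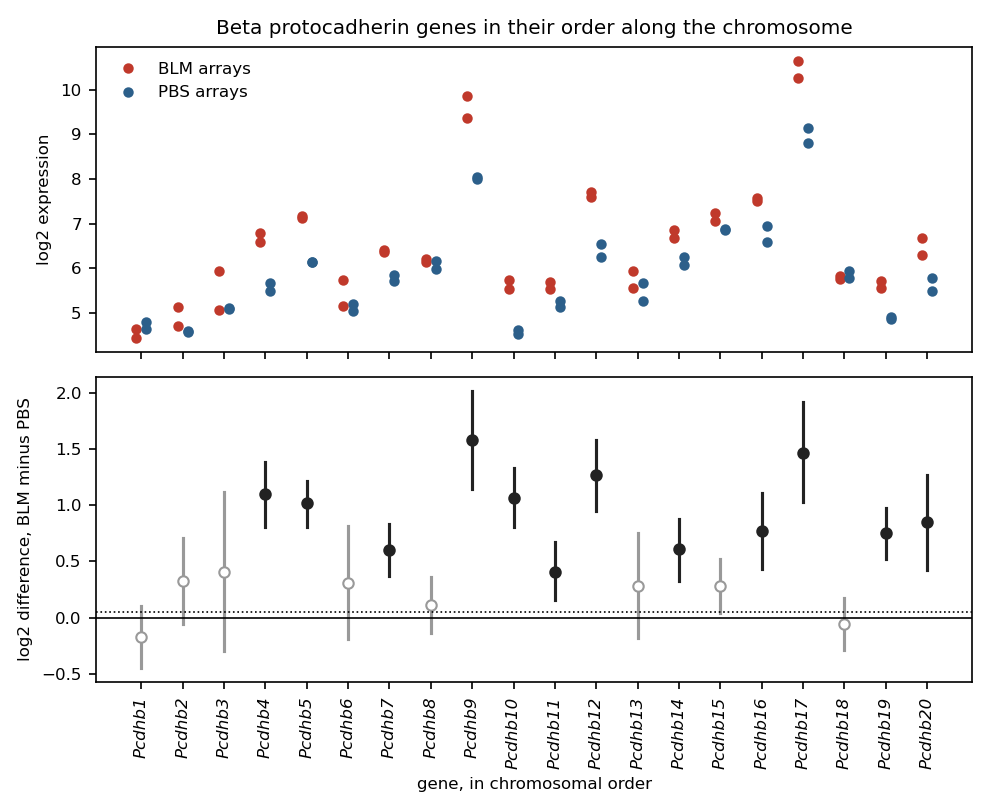
Beta protocadherin genes in chromosomal order on the horizontal axis, with log2 expression of each array above (BLM at the left of each position, PBS at the right) and the log2 difference, BLM minus PBS, with its 95% interval below; filled points passed, open points did not, n = 2 arrays per group, and the dotted line marks the median of all genes. The 12 filled points lie between 0.41 and 1.58 and are interspersed with open ones.

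Cadherin-related genes outside the family's naming were measured for comparison, and Cdh5, whose values are given with the endothelial markers, belongs to the same list. Of 11 genes, 2 rose, 3 fell and 6 did not pass, against 15.2% upward and 10.1% downward over all genes. Cdhr3, a cadherin of ciliated airway cells, fell by 2.69 (SE 0.11) and Cdhr4 by 1.17 (SE 0.09), on arrays where all 4 measured ciliated markers fell. Clstn1, the calsyntenin gene, stood at -0.51 (adjusted p = 0.00983) and had an adjusted p of up to 0.0641 when an array was left out.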

How the data were processed

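Total RNA of lung CD45-negative cells was hybridised to 4 Affymetrix arrays, 2 from BLM-treated and 2 from PBS-treated mice. The authors deposited log2 values, 1 for each transcript cluster; the submitters' processing notes name RMA and Expression Console. RMA subtracts background, forces every array onto the same distribution and combines the probes of a cluster, which compresses small differences of dim features. The software version and array build are not stated in the sources used here, and no detection calls were used.

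Of 72688 features, 30604 carried 1 gene symbol in the platform annotation. Symbols were updated through Entrez identifiers (827 changed), and the feature with the highest mean was kept per gene, which left 30142 genes. No array column was left out. limma 3.58.1 in R 4.3.3 (lmFit, eBayes, two-sided) compared BLM with PBS, and p-values of all genes were adjusted together by Benjamini-Hochberg and called under 0.05. The number of arrays limits the precision, and the fit had 2 residual and 3.33 prior degrees of freedom. The script was tested on simulated data.

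The members and lists were chosen with earlier results of these data known. Full values by array went to members past the threshold that differed by at least 1 log2 unit and to a fixed panel (Cdh1, Cdh2, Cdh3, Cdh11, Cdh13, Dsc2, Dsg2, Fat1, Fat4, Celsr1, Pcdh1, Pcdh7 and Pcdh18). Outside the family, each list contributed at most 4 genes, those that passed with the largest absolute differences. Further genes were named after their values were seen. Alternatives were a replicate block, fits without each array, without dim genes or without X and Y genes, averaging the features of a gene, another variance prior (trended, robust), median centring and cyclic loess.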

Additional observations from a re-analysis of the deposited data

Results flagged for a closer look

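A feature that the annotation gives to Pcdhb21 and Pcdhb22 together was outside the comparison, since it names 2 genes. It had values of 6.54 and 6.31 on the BLM arrays, against 5.69 and 5.87 on the PBS arrays. The mean difference of 0.64 was not tested, and both BLM arrays lay above both PBS arrays. A feature that names 15 genes, most of them alpha protocadherins, had 4.64 and 4.61 on the BLM arrays and 4.67 and 4.66 on the PBS arrays, under the background features' 95th percentile on all 4 arrays.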

How the results depend on the processing

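All 27 members that passed kept their direction in every alternative in which they were tested, and 14 kept their call in all of them. The other 13 lost it without at least 1 array, and 5 of these also in another setting. Leaving out 1 array in turn gave 4003 to 5956 genes past the threshold against 7629 (4003 without BLM replicate 1 and 4379 without BLM replicate 2), 14 to 18 members higher against 22, 4 lower in each fit against 5, 7 to 10 at least 2-fold against 9, 8 to 11 beta protocadherins against 12, 1 to 3 non-clustered protocadherins against 5, 5 to 6 catenin and plakin partners against 7, and a median member difference of 0.14 to 0.2 against 0.15. A fit without an array takes its spread in that group from the pair of the other group, and the cause of lost calls was not tested. Cyclic loess left 3 non-clustered protocadherins higher and gave a median of 0.11, the cause of which was not tested, and 10 partners passed. The filter on dim genes gave a median of 0.61 because it leaves 28 members. Pcdh1, which did not pass, lay between -0.02 (without BLM replicate 1) and 0.09 (without BLM replicate 2) when an array was left out and turned to -0.07 with cyclic loess. Arrays of the same number did not deviate together (correlation of deviations 0.014), so the replicate block pairs samples by number only. With the replicate block 6742 genes passed, 21 members rose and 4 fell. The counts for beta and non-clustered protocadherins under the alternatives were added after the data were seen. Signal over background limits the dim members, and differences of 0.29 or less were not called.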
